A study of Mus musculus with 8 samples.

Results

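Activins are secreted growth factors of the TGF-beta superfamily, and the 9 genes described here encode 2 activin subunits, 3 follistatin-type proteins and 4 receptors, taken by symbol (Inhba, Inhbb, Fst, Fstl3, Fstl1, Acvr1, Acvr1b, Acvr2a and Acvr2b) from the 38926 gene symbols counted in each library. All 9 were found and all 9 passed the filter on low counts that left 16370 genes to be tested. The samples were whole mouse bladders, sequenced as polyA RNA in 4 libraries labelled NeMO, from a nerve-sparing operation that partially obstructs the bladder outlet, and in 4 libraries from sham-operated (Sham) mice. Batch marks in the submitted file names put NeMO replicates 1 and 3 and Sham replicates 1 to 3 in batch 1, and NeMO replicates 2 and 4 and Sham replicate 4 in batch 2. The labels name no strain, sex, age, time after surgery, genetic change or drug for either group. The family was selected on the NeMO and Sham read counts of Inhba and Fst, which were known to differ, so the values of these genes are given as a description with no test.

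Activin A is a dimer of the subunit encoded by Inhba and activin B a dimer of that encoded by Inhbb. The ligands bind a type II receptor (Acvr2a or Acvr2b), which recruits and activates a type I receptor, chiefly Acvr1b, and this phosphorylates Smad2 and Smad3. Acvr1 is a type I receptor that mainly serves bone morphogenetic proteins and signals through Smad1 and Smad5. Follistatin (Fst) and follistatin-like 3 (Fstl3) wrap around activins in the extracellular space and keep them from their receptors, whereas Fstl1, a secreted glycoprotein of mesenchymal cells, shares their domain type but is not known chiefly as an activin trap. Activin A is known in other tissues as a factor of wound repair and fibrosis.

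The start regions of both subunit genes are shown because these genes differ in level and in how far NeMO and Sham stood apart. The windows run from 250 bases before to 50 bases after the RefSeq start, on GRCm38.p6, and capitals mark each CG dinucleotide.
Inhba promoter, chr13:16011601-16011900, plus strand: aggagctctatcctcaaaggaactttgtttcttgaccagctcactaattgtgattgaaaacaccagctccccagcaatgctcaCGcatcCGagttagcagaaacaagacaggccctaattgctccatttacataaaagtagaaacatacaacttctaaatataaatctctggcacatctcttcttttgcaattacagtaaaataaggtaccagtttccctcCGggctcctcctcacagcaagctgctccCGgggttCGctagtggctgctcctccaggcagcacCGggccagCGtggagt
Inhbb promoter, chr1:119422199-119422498, minus strand: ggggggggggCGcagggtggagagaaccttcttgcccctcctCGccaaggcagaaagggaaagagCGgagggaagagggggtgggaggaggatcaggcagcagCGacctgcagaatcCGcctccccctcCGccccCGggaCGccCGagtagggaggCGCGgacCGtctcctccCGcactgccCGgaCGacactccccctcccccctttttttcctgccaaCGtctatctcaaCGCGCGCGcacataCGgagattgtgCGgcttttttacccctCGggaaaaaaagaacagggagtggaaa
The Inhba window held 7 CG dinucleotides at 47.7% G and C, and the Inhbb window 23 at 64.3%, against medians of 7 and 52.7% over 32851 windows. Of the 8 members with a window in the RefSeq table, Inhba had the lowest G and C content, and the other 7 ran from 64.3% to 83.7%. A TATAAA motif, searched on both strands, stood once in the Inhba window, once in the Fstl3 window and in 13.6% of all windows. The GGGCGG motif, also searched on both strands, was not found in the Inhba window, stood once in the Inhbb window and was in 35.7% of all windows. A match is a run of letters only, and says nothing of a factor's binding.

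Inhba was near the detection floor in the Sham libraries and well above it in every NeMO library. The NeMO libraries held 72, 52, 136 and 114 Inhba reads (replicates 1 to 4), against 11, 5, 9 and 6 in the Sham libraries. As CPM (counts relative to library size, which was scaled by the trimmed mean of M values, TMM), this was 2.06, 1.72, 3.96 and 3.16 in NeMO and 0.324, 0.173, 0.269 and 0.228 in Sham. The lowest NeMO library thus lay above the highest Sham library in both batches, and NeMO replicates 3 and 4 were the highest. The means were 2.73 ± 1.03 CPM in NeMO and 0.249 ± 0.0639 CPM in Sham (SD, n = 4 each), a log2 fold change, NeMO minus Sham, of 3.49 (SE 0.39). The Sham level rests on 31 reads over all 4 libraries, so it is the least precisely measured of the family. The gene lies on chromosome 13 of GRCm38 (16011851 to 16031621, plus strand), and its merged exons span 6390 nucleotides.

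Inhbb, the other subunit gene, was more abundant than Inhba in every library and stood higher in each NeMO library than in any Sham library. It measured 16.6, 17.6, 20.1 and 15.6 CPM in NeMO replicates 1 to 4 and 9.75, 11.8, 12.6 and 12.002 CPM in Sham replicates 1 to 4. The groups did not overlap, and the spread within each was small, with SDs of 1.94 CPM in NeMO and 1.23 CPM in Sham. The log2 fold change was 0.61 (SE 0.13), which did not pass the threshold of 0.05 over all genes (edgeR quasi-likelihood test, Benjamini-Hochberg adjusted p = 0.0880). It did pass in DESeq2's Wald test (0.62, adjusted p = 0.00237), in edgeR with no filter on low counts (adjusted p = 0.0497) and in edgeR without NeMO replicate 1 (0.66, adjusted p = 0.0450). Those fits called 953, 172 and 652 of all genes, against 12 in the main fit. In 13 of the 16 alternatives to the main fit Inhbb did not pass, batch 1 alone among them (edgeR adjusted p = 0.355). Inhbb lies on chromosome 1 (119415465 to 119422248, minus strand).

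On a per-length scale, CPM per kilobase of merged exons (RPKM), the Inhba share of the summed subunit transcripts was 7.66%, 6.12%, 11.6% and 11.9% in NeMO replicates 1 to 4, against 2.17%, 0.967%, 1.41% and 1.25% in Sham replicates 1 to 4. Inhbb therefore made up most of the subunit transcripts in every library of either group. The summed subunits measured 4.53 ± 0.553 RPKM in NeMO and 2.75 ± 0.284 RPKM in Sham (SD, n = 4 each). Transcript levels do not give the amount of secreted activin A or activin B. In whole tissue, fewer cells of a type and less RNA per cell cannot be told apart, here and in all results that follow.

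**Figure D1:**
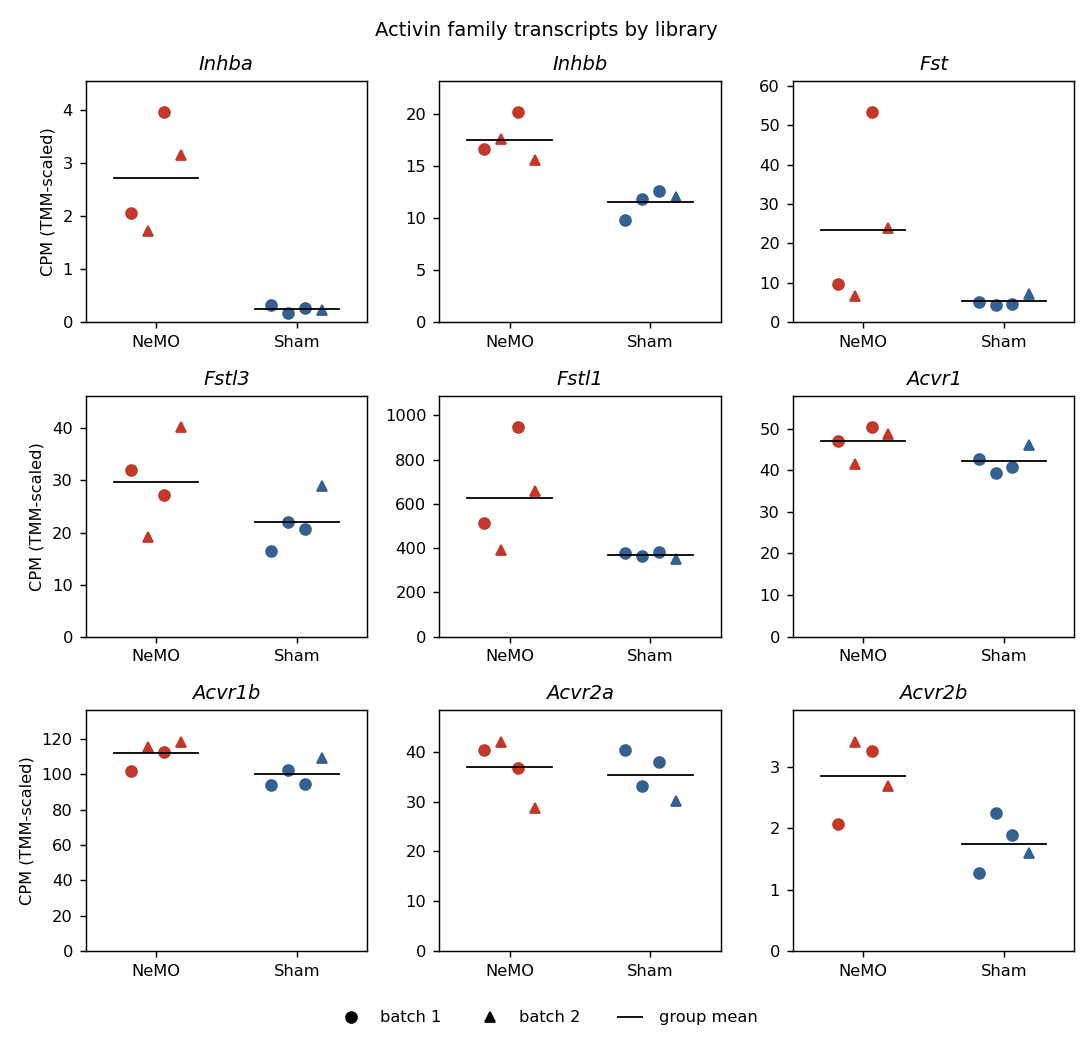
Scaled CPM of the 9 members in each library, NeMO left and Sham right, with circles for batch 1, triangles for batch 2 and a line at the group mean; each panel has its own axis from 0. Inhba, Inhbb and Fstl1 show no overlap between the groups, while Fst in NeMO spreads from 6.52 to 53.3 CPM.

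Fst, which encodes the activin-binding protein follistatin, was far above the Sham range in 2 NeMO libraries and close to it in the other two. It measured 9.63, 6.52, 53.3 and 24.0 CPM in NeMO replicates 1 to 4, against 5.04, 4.29, 4.64 and 7.14 CPM in Sham replicates 1 to 4. The groups overlapped, since NeMO replicate 2 was below Sham replicate 4. The means were 23.4 ± 21.3 CPM in NeMO and 5.28 ± 1.28 CPM in Sham (SD, n = 4 each), with a log2 fold change of 2.16 (SE 0.69). Without NeMO replicate 3 the log2 fold change was 1.07, and it was 2.76 in batch 1 alone and 1.11 in batch 2 alone. An unnamed gene model on the opposite strand, Gm47040, overlaps Fst exons, and no source used here gives the strand setting of the counting.

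Fstl1 was the most abundant member in every library, by CPM and per length. It measured 513, 391.95, 947 and 659 CPM in NeMO replicates 1 to 4 and 377, 365, 383 and 351 CPM in Sham replicates 1 to 4. All 4 NeMO libraries lay above all 4 Sham libraries, NeMO replicate 2 by a small margin. The NeMO libraries spread widely, at 627 ± 239 CPM, and the Sham libraries hardly at all, at 369 ± 14.4 CPM (SD, n = 4 each). The log2 fold change of 0.82 (SE 0.23) did not pass over all genes in edgeR (adjusted p = 0.135). It passed in DESeq2 (0.83, adjusted p = 0.00495), which called 953 of all genes. Without NeMO replicate 3 the edgeR value was 0.51.

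Fstl3, the other soluble activin antagonist, overlapped between the groups. It measured 31.9, 19.2, 27.2 and 40.2 CPM in NeMO replicates 1 to 4, against 16.4, 21.95, 20.7 and 29.0 CPM in Sham replicates 1 to 4. The 2 highest values, in NeMO replicate 4 and NeMO replicate 1, exceeded every Sham library, and NeMO replicate 2 was below 3 of the 4 Sham libraries. The log2 fold change of 0.39 (SE 0.24, 95% interval −0.16 to 0.94) did not pass in edgeR (adjusted p = 0.425) and was 0.05 in batch 2 alone against 0.59 in batch 1 alone. Batch 2 holds 1 Sham library, which had the highest Fstl3 of its group. Fstl3 exons overlap those of Prss57 on the opposite strand.

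The antagonist transcripts were also set against the subunits per length. Fst and Fstl3 together measured 15.2, 9.26, 22.7 and 21.7 RPKM in NeMO replicates 1 to 4 and 7.82, 9.91, 9.46 and 13.4 RPKM in Sham replicates 1 to 4. Their ratio to the summed subunits was 3.59, 2.10, 4.25 and 5.22 in NeMO and 3.34, 3.54, 3.16 and 4.70 in Sham. The ranges of the groups overlapped, with means of 3.79 ± 1.31 in NeMO and 3.68 ± 0.695 in Sham (SD, n = 4 each). Fst and Fstl3 transcripts together thus outnumbered subunit transcripts in all 8 libraries. For Fst alone the ratio to the summed subunits was 0.498, 0.323, 2.17 and 1.26 in NeMO replicates 1 to 4. In Sham it ran from 0.334 to 0.545, so only NeMO replicates 3 and 4 lay above that range.

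None of the 4 receptor genes passed the test. Acvr1b, Acvr1 and Acvr2a had log2 fold changes of 0.11 to 0.15, and the scarce Acvr2b one of 0.69. Acvr1b, the main type I activin receptor, measured 102, 115, 113 and 118 CPM in NeMO replicates 1 to 4 and 94.0, 102, 94.7 and 109 CPM in Sham replicates 1 to 4. Its log2 fold change was 0.13 (SE 0.07, 95% interval −0.02 to 0.28, edgeR adjusted p = 0.346). The groups overlapped, and the interval lies well inside log2 values of −1 and 1.

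Acvr1, the type I receptor shared with bone morphogenetic proteins, measured 47.1, 41.5, 50.4 and 48.7 CPM in NeMO replicates 1 to 4 and 42.8, 39.4, 40.8 and 46.1 CPM in Sham replicates 1 to 4. The groups overlapped (log2 fold change 0.15, SE 0.09, 95% interval −0.05 to 0.35, edgeR adjusted p = 0.395). In batch 2 alone the value was −0.02.

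Acvr2a, the more abundant type II receptor, measured 40.3, 42.0, 36.7 and 28.7 CPM in NeMO replicates 1 to 4 and 40.3, 33.1, 38.0 and 30.1 CPM in Sham replicates 1 to 4. The groups overlapped over nearly their whole ranges, with a log2 fold change of 0.11 (SE 0.13, 95% interval −0.18 to 0.40, edgeR adjusted p = 0.677). With transcript length and GC corrected for, its value was −0.00091. Acvr2a exons overlap those of Orc4 on the opposite strand.

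Acvr2b, the scarcer type II receptor, measured 2.06, 3.41, 3.26 and 2.68 CPM in NeMO replicates 1 to 4, against 1.27, 2.25, 1.89 and 1.595 CPM in Sham replicates 1 to 4. Only NeMO replicate 1 fell inside the Sham range. The log2 fold change of 0.69 (SE 0.28, 95% interval 0.05 to 1.33) did not pass over all genes (edgeR adjusted p = 0.241), with 384 reads in NeMO and 213 in Sham over 4 libraries each. Per length, Acvr2a exceeded Acvr2b by a ratio of 9.29 ± 2.84 in NeMO and 14.8 ± 5.07 in Sham (SD, n = 4 each).

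All 9 members had a log2 fold change above 0, with a median of 0.61, while 48.3% of all genes tested were above 0 and their median was −0.01. Of all genes tested, 12 (0.0733%) passed an adjusted p of 0.05 in edgeR, 7 higher (0.0428%) and 5 lower (0.0305%) in NeMO, and Inhba, whose difference was known beforehand, was the single member among them. At an unadjusted p under 0.05, 5 members were higher and 0 lower, against 18.5% of all genes tested, 9.38% higher and 9.14% lower. Groups did not overlap for 3 members (Inhba, Inhbb and Fstl1), all higher in NeMO, against 8.19% of all genes tested, 4.39% higher and 3.81% lower. Inhba and Fst entered with their difference known, so these counts describe the family and do not test it. The number of genes past the threshold ran from 0 to 652 when 1 library was left out, so a member's side of that threshold is less informative than its values.

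**Figure D2:**
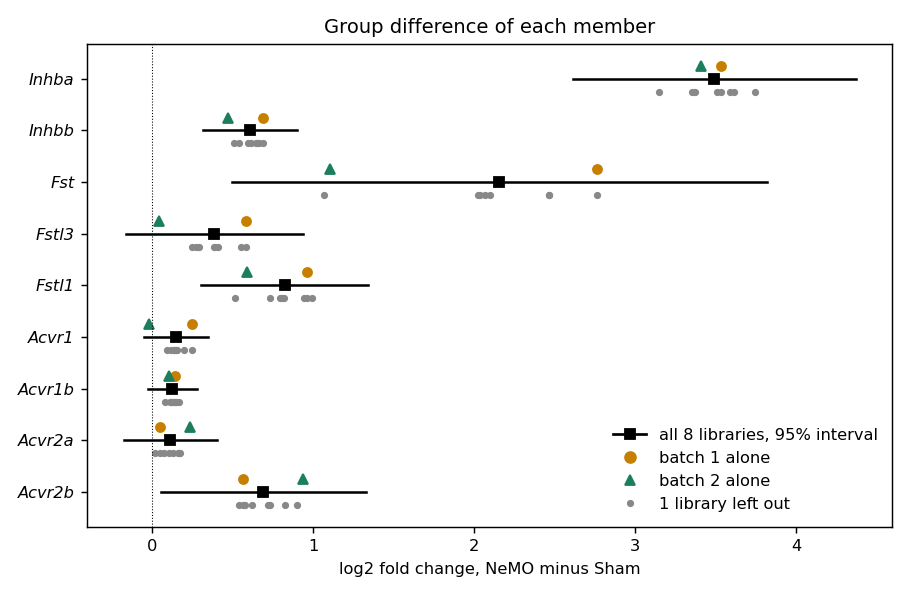
Log2 fold change (NeMO minus Sham) of each member from all 8 libraries with its 95% interval (squares and lines), in batch 1 alone (circles), in batch 2 alone (triangles) and with each library left out (grey points). Inhba stays between 3.15 and 3.74 when a library is left out, whereas Fst ranges from 1.07 to 2.76. The 3 receptors other than Acvr2b then stay between 0.02 and 0.25. The family was chosen on the difference of Inhba and Fst, so the intervals of these genes are a description and no test.

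The differences were also compared between batches, as batch 2 rests on 1 Sham library. For Inhba the means were 3.01 CPM in NeMO and 0.256 CPM in Sham in batch 1, and 2.44 CPM in NeMO and 0.228 CPM in Sham in batch 2. For Fst they were 31.5 CPM in NeMO and 4.66 CPM in Sham in batch 1, and 15.2 CPM in NeMO and 7.14 CPM in Sham in batch 2. The term for a group difference that depends on batch was −0.13 (SE 0.94) for Inhba and −1.66 (SE 1.36) for Fst on the log2 scale, with edgeR adjusted p from 0.930 to 0.999 over the members. Over all genes 0 passed that test in edgeR (758, or 4.63%, at an unadjusted p under 0.05). The SEs show that sizeable batch dependence would not have been detected.

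The order of the members per length was alike in both groups at its upper end. In NeMO the mean RPKM ran from Fstl1 (128 ± 48.6) through Acvr1b (25.3 ± 1.66), Fstl3 (12.1 ± 3.61), Acvr1 (9.72 ± 0.796), Acvr2a (6.49 ± 1.04), Fst (5.09 ± 4.65), Inhbb (4.10 ± 0.456) and Acvr2b (0.727 ± 0.156) to Inhba (0.427 ± 0.161). In Sham it ran from Fstl1 (75.1 ± 2.93) through Acvr1b (22.6 ± 1.61), Fstl3 (9.004 ± 2.14), Acvr1 (8.75 ± 0.599), Acvr2a (6.23 ± 0.813), Inhbb (2.71 ± 0.290), Fst (1.1501 ± 0.279) and Acvr2b (0.445 ± 0.107) to Inhba (0.0389 ± 0.0100). Fst stood above Inhbb in the NeMO means and below it in the Sham means. In NeMO the ranges of the neighbours Fstl3 and Acvr1, Acvr2a and Fst, Fst and Inhbb, and Acvr2b and Inhba overlapped. In Sham the ranges of Fstl3 and Acvr1 overlapped and no other neighbours did. With the longest transcript in place of merged exons, Acvr1 and Fstl3 changed places in Sham, and Fst and Acvr2a did in NeMO.

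**Figure D3:**
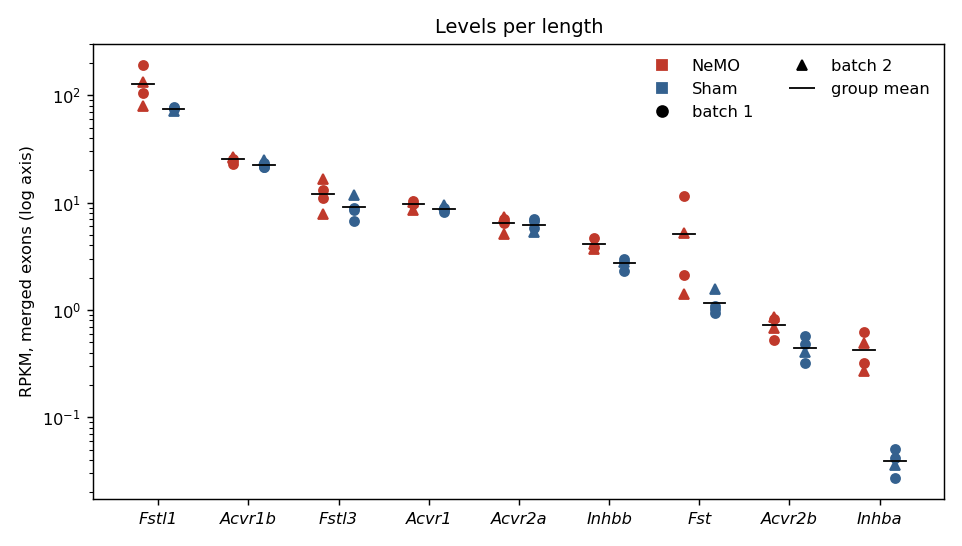
RPKM of merged exons on a log axis for each member and library, NeMO left and Sham right of each gene, ordered by the Sham mean; circles are batch 1, triangles batch 2 and lines group means. Inhba is lowest in both groups, at 0.427 RPKM in NeMO and 0.0389 RPKM in Sham.

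Inhba, Fst and Fstl1 ranked the NeMO libraries the same way, with replicate 3 highest, then replicate 4, replicate 1 and replicate 2. The summed level of 10 fibroblast markers had that order too, at 27500, 16828, 11958 and 10706 CPM in NeMO replicates 3, 4, 1 and 2, and it ran from 11333 to 15215 CPM in Sham. Col1a1, Col1a2 and Col3a1 made up most of the sum, at 5092, 7287 and 10536 CPM in NeMO replicate 3. Col1a1, Col3a1, Pdgfrb and Mfap5 kept its order, and Col1a2 nearly did. Pdgfra, Dcn and Lum were higher in NeMO replicate 1 than in replicate 4. Pi16 and Dpt were lowest in NeMO replicate 3, at 264 and 143 CPM. All 10 markers were tested and 8 had values above 0, the smallest edgeR adjusted p being 0.123 for Pdgfrb (0.53). The next was 0.170 for Dpt, which stood the other way (−0.38). The share of mitochondrial reads was 1.73% and 1.62% in NeMO replicates 3 and 4 and 2.65% and 2.34% in NeMO replicates 1 and 2, against 2.64% to 3.20% in Sham. The order was not particular to fibroblast markers. Endothelial markers summed to 512, 434, 364 and 304 CPM in NeMO replicates 3, 4, 1 and 2, and to 345 to 418 CPM in Sham. Macrophage markers summed to 808, 648, 613 and 330 CPM in NeMO replicates 3, 4, 1 and 2. The part of fibroblast, endothelial or macrophage content, or of the mitochondrial share, in the Inhba, Fst and Fstl1 values was not tested.

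**Figure D4:**
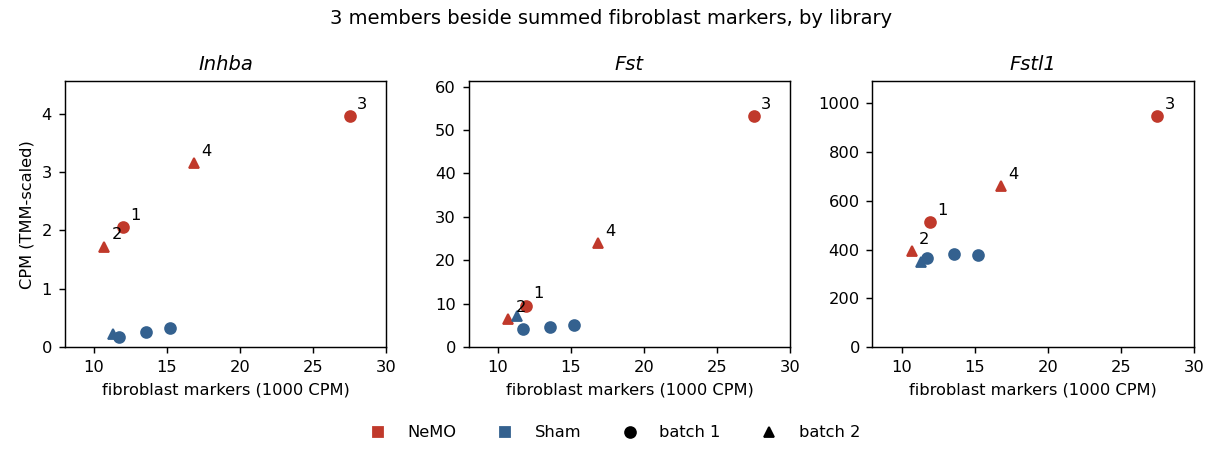
CPM of Inhba, Fst and Fstl1 against the summed CPM of 10 fibroblast markers in each library, NeMO in red with its replicate number and Sham in blue, circles for batch 1 and triangles for batch 2. Most of the sum is Col1a1, Col1a2 and Col3a1. NeMO replicate 3 has the highest marker sum, 27500 CPM, and the highest value of each gene. NeMO replicate 2 has the lowest marker sum, 10706 CPM, and the lowest NeMO value of each gene. Endothelial and macrophage marker sums, not drawn, rank the NeMO libraries the same way.

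The tissue label was checked against markers of the bladder and its neighbours. Urothelial markers (Upk1a, Upk1b and 8 more) summed to 6370 to 9447 CPM in NeMO and 7560 to 10016 CPM in Sham, with 2 of 10 above 0 and 8 below, 5 of them at an unadjusted p under 0.05 (9.14% of all genes tested). Smooth muscle markers (Myh11, Tagln and 6 more) summed to 28210 to 52054 CPM in NeMO and 33061 to 44986 CPM in Sham. Prostate and seminal vesicle markers summed to at most 0.138 CPM in NeMO and 0.139 CPM in Sham, with Pbsn, Svs4 and Pate4 at 0 in all libraries. Skeletal muscle markers were present, at 709 to 1253 CPM in NeMO and 770 to 1043 CPM in Sham, most of it Acta1. Mesothelial markers summed to 812 to 1044 CPM in NeMO and 895 to 1399 CPM in Sham. Of 7 mast cell markers, 6 were higher in NeMO with no overlap between the groups, against 4.39% of all genes tested. Kit was the exception, and the edgeR adjusted p ran from 0.0534 to 0.131 for these 6. Cpa3, a mast cell protease, measured 13.0 ± 5.88 CPM in NeMO and 2.90 ± 0.953 CPM in Sham (SD, n = 4 each). All 6 adipocyte markers had log2 values below 0, 4 of them at an unadjusted edgeR p under 0.05, against 9.14% of all genes tested. Groups did not overlap for 1 of the 6, against 3.81% of all genes tested lower. This was Fabp4, at 310 ± 91.5 CPM in NeMO and 617 ± 207 CPM in Sham. Adipocyte markers summed to 2501 CPM in Sham replicate 4, against 862 to 1404 CPM in the other Sham libraries. Macrophage markers summed to 330 to 808 CPM in NeMO and 641 to 929 CPM in Sham, all 7 with log2 values below 0. Nerve and Schwann cell markers summed to 221 to 396 CPM in NeMO and 371 to 448 CPM in Sham, all 7 with log2 values below 0 and a median of −0.58. Of these 7, 3 were lower at an unadjusted edgeR p under 0.05, against 9.14% of all genes tested. The part of these cell types in the activin family values was not tested.

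Smad2 and Smad3 act downstream of Acvr1b and of the TGF-beta receptors alike. Of 17 genes responsive to them 15 had values above 0, against 48.3% of all genes tested, and their median was 0.39 on the log2 scale. In edgeR 0 passed over all genes, and 5, all higher, had an unadjusted p under 0.05, against 9.38% of all genes tested. This list and those that follow were written with earlier results of these data known. Their counts and medians therefore describe the lists and do not test them. The fibronectin gene Fn1 measured 4668, 2146, 4323 and 4780 CPM in NeMO replicates 1 to 4 and 1435, 1569, 1321 and 1608 CPM in Sham replicates 1 to 4 (log2 fold change 1.45, SE 0.24, edgeR adjusted p = 0.0691). Every NeMO library exceeded every Sham library, and NeMO replicate 2 was the lowest of its group. Skil, a Smad corepressor that Smad signalling itself induces, measured 63.2 ± 13.5 CPM in NeMO and 46.3 ± 3.20 CPM in Sham (SD, n = 4 each, 0.49, SE 0.12, edgeR adjusted p = 0.106).

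Other members of that list were less uniform. Ctgf, a matricellular protein gene, measured 54.9 ± 28.4 CPM in NeMO and 20.4 ± 7.27 CPM in Sham (SD, n = 4 each, 1.44, SE 0.52, edgeR adjusted p = 0.225). Pmepa1, a feedback inhibitor of Smad2 and Smad3, stood at 0.39 (SE 0.17) and the inhibitory Smad7 at 0.02 (SE 0.15). The collagen-binding Tgfbi was one of the 2 genes below 0, at −0.28 (SE 0.16). The list's median was 0.65 in batch 1 alone and 0.07 in batch 2 alone, which has 1 Sham library, and 0.13 without NeMO replicate 1. Without NeMO replicate 1, 3 of its genes passed edgeR, among 652 of all genes. TGF-beta ligands also act on these genes, so their values are not specific to activin.

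**Figure D5:**
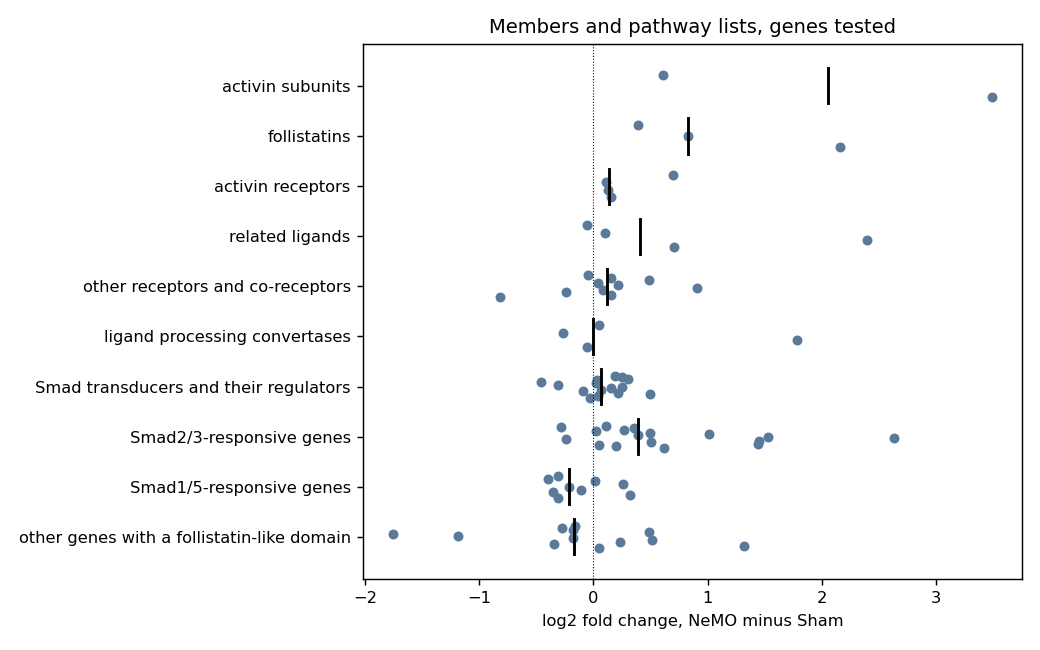
Log2 fold change (NeMO minus Sham) of every tested gene in the 3 member groups and 7 pathway lists, 1 point a gene, with a line at the list median. The median of the Smad2/3-responsive list is 0.39 and that of the Smad1/5-responsive list −0.22.

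Smad1 and Smad5 carry the branch served by Acvr1. Of 9 genes responsive to them 3 had values above 0 and 6 below, with a median of −0.22, and 0 passed edgeR. At an unadjusted edgeR p under 0.05, Id4 was higher and Msx2 lower, against 9.38% of all genes tested higher and 9.14% lower. The median was −0.05 with transcript length and GC corrected for, and −0.11 in batch 1 alone and without NeMO replicate 3. The inhibitors of DNA binding were its 4 most abundant members, at −0.35 for Id1 (SE 0.18), −0.11 for Id2 (SE 0.16), −0.22 for Id3 (SE 0.19) and 0.26 for Id4 (SE 0.10). Of 15 tested Smad genes and regulators 11 were higher, with a median of 0.06 and 0 past edgeR's threshold. Of these, 4 were higher at an unadjusted edgeR p under 0.05, against 9.38% of all genes tested. They were Smad5 (0.25), Smurf2 (0.30), Skil (0.49) and Trim33 (0.25). Groups did not overlap for 3 of the 15 (Smad5, Smurf2 and Skil), against 4.39% of all genes tested. The 3 most abundant genes of this list were near 0. Smad3, which carries the activin signal, stood at 0.06 (SE 0.07), the corepressor Ski at 0.04 (SE 0.12) and the Smad phosphatase Ppm1a at −0.03 (SE 0.09).

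Among related ligands 4 of 10 were tested, with 3 higher and 0 past edgeR's threshold. At an unadjusted edgeR p under 0.05, 2 were higher, against 9.38% of all genes tested. Inha, whose product pairs with either subunit to form inhibins, measured 10.4 ± 1.39 CPM in NeMO and 10.02 ± 2.21 CPM in Sham (SD, n = 4 each, 0.10, SE 0.19). Gdf11, a ligand that shares the activin receptors and is bound by follistatin, measured 8.14, 8.01, 15.2 and 8.61 CPM in NeMO replicates 1 to 4 and 7.51, 7.03, 4.999 and 6.08 CPM in Sham replicates 1 to 4 (0.70, SE 0.23, edgeR adjusted p = 0.162). The groups did not overlap, though NeMO replicates 1, 2 and 4 lay close to the highest Sham library. Lefty1, a secreted antagonist of Nodal, stood at −0.06 (SE 0.28). No reads were counted for Inhbc, Inhbe or Gdf1 in any library.

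Activin precursors are cleaved by proprotein convertases, of which 4 were tested, 2 higher and 2 lower (median −0.00, 0 past edgeR's threshold). Only 1 was higher at an unadjusted edgeR p under 0.05, against 9.38% of all genes tested. Furin, the most abundant, measured 132 ± 13.6 CPM in NeMO and 133 ± 26.5 CPM in Sham (SD, n = 4 each, −0.05, SE 0.12), and Pcsk7 stood at 0.05 (SE 0.09). Pcsk5 measured 10.4, 18.4, 85.5 and 34.6 CPM in NeMO replicates 1 to 4, against 13.3, 13.9, 9.85 and 9.80 CPM in Sham replicates 1 to 4 (1.78, SE 0.63, edgeR adjusted p = 0.217). NeMO replicates 3 and 4 were again the highest, and NeMO replicate 1 lay within the Sham range.

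Of 10 other receptors and co-receptors tested, 7 were higher and 3 lower, with a median of 0.12 and 0 past edgeR's threshold. At an unadjusted edgeR p under 0.05, 2 were higher, against 9.38% of all genes tested. These 2 were Tgfbr1 (0.49, SE 0.10, edgeR adjusted p = 0.0870) and Bmpr1b (0.90, SE 0.245, edgeR adjusted p = 0.125). The lowest was Acvr1c, at −0.82 (SE 0.45, edgeR adjusted p = 0.375). The 3 most abundant were closer to 0. Tgfbr2, the type II TGF-beta receptor, stood at 0.15 (SE 0.12) and Bmpr1a at 0.08 (SE 0.10). The inhibin and TGF-beta co-receptor Tgfbr3 stood at −0.05 (SE 0.10). Of 12 other tested genes with a follistatin-like domain 5 were higher and 7 lower, with a median of −0.17 and 0 past edgeR's threshold. At an unadjusted edgeR p under 0.05, 3 were higher and 3 lower, against 9.38% of all genes tested higher and 9.14% lower. Sparc, a matrix glycoprotein, measured 1706, 1339, 3876 and 2354 CPM in NeMO replicates 1 to 4, against 1622, 1583, 1744 and 1743 CPM in Sham replicates 1 to 4 (0.51, SE 0.29). Its 2 highest libraries were those of Fst and Fstl1. Groups did not overlap for 4 of these 12 genes, against 8.19% of all genes tested. The extracellular proteoglycan genes Spock2 (−1.19, SE 0.19, edgeR adjusted p = 0.0691) and Spock3 (−1.75, SE 0.39, edgeR adjusted p = 0.109) were lower in NeMO, and Fstl4 (1.32, SE 0.53, edgeR adjusted p = 0.237) and Tmeff1 (0.48, SE 0.13, edgeR adjusted p = 0.121) were higher. DESeq2's Wald test, which called 953 of all genes, called 4 of the Smad2/3-responsive genes, 1 Smad1/5-responsive gene, 2 of the Smad genes and regulators, 2 other receptors, 3 genes with a follistatin-like domain, and 0 related ligands or convertases. Without NeMO replicate 1 edgeR called 652 of all genes, among them 1 Smad1/5-responsive gene, 1 convertase, 1 other receptor and 2 genes with a follistatin-like domain.

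The genes whose log2 CPM over the 8 libraries was most like that of Inhba, among 13233 genes with a mean of at least 1 CPM, were Tmem2 (Pearson correlation 0.98), Vps26b (0.97), Whsc1l1 (0.97), Htr1b (0.97) and Osmr (0.96). Tmem2, a cell surface hyaluronidase, measured 39.9 CPM in NeMO and 24.1 CPM in Sham, and the serotonin receptor gene Htr1b 7.47 CPM in NeMO and 1.97 CPM in Sham. For Fst they were Ifnar1 (0.99), Col5a1 (0.99), Ltbp2 (0.99), Pear1 (0.99) and Samd14 (0.99). Col5a1, a fibrillar collagen chain, measured 505 CPM in NeMO and 299.97 CPM in Sham, and the matrix protein gene Ltbp2 32.1 CPM in NeMO and 5.24 CPM in Sham. These values describe 8 points in 2 groups that share the group difference, and the genes were picked as the closest of many. With batch and group means removed, the closest to Inhba were Evl, Erg, Gsap, Hmha1 and Kank3 (0.98 to 0.99), and those closest to Fst were Figf, Sparc, Pear1, Col5a1 and Chst14 (0.992 to 0.996). Pear1 and Col5a1 were in both lists for Fst, and no gene was in both lists for Inhba.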

How the data were processed

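PolyA RNA of mouse bladder was sequenced as single-end reads from libraries made with a directional kit, per the labels' protocols. The deposited file of each library lists raw read counts by gene symbol. Per the submitters' processing notes, the authors used the mm10 build with Trimmomatic, STAR, featureCounts and DESeq2, whose versions, annotation, strand setting and handling of multi-mapping reads no source used here gives. Library totals ran from 29451800 to 36375313 counts in NeMO and from 27212499 to 33459048 in Sham, so 1 CPM stood for 26.3 to 36.1 reads. Every pair of libraries within a group differed by more than sampling noise. Whether every library is a separate animal is not stated, so p-values cover only the spread among these 8 libraries, which may be technical.

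Counts were fitted in R 4.3.3 with edgeR 4.0.16 (filterByExpr with a minimum count of 10 and total of 15, TMM scaling, robust quasi-likelihood F-test, batch and group as terms, two-sided). P-values were adjusted over all 16370 genes, with a threshold of 0.05. Intervals use the test's degrees of freedom. DESeq2 1.42.0 and the other alternatives are given in the closing section. Positions and lengths come from GENCODE M21 on GRCm38, and promoters from RefSeq on GRCm38.p6. The edgeR tests were also run on counts simulated from the fitted spread of each gene, which cannot show how well the model suits these data. The members and lists were chosen with earlier results of these data known. Named were all members, up to 4 called or else the 3 most abundant genes of each pathway list, Pmepa1, Smad7, Skil and Ctgf, the 2 most abundant of each marker list (only some are printed) and the 5 genes most like Inhba or Fst; 1 gene that the rule names is not reported here. Spock2, Spock3, Fstl4, Tmeff1, Id4, Msx2, Pdgfrb, Dpt, Mstn and Gdf3 were picked with their values in view. So were Tgfbr1, Bmpr1b, Acvr1c, Smad5, Smurf2 and Trim33.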

Additional observations from a re-analysis of the deposited data

Results flagged for a closer look

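In 115 groups of 4 libraries examined (each member and named gene in NeMO and in Sham), 7 held a library whose distance from the nearest other one took up more of the group's range than Dixon's 95% critical value allows. Chance flags about 1 in 20 such groups, so a number of this size is near what chance gives, and none of the 9 members was among them. The highest library stood apart for Gdf11 in NeMO (15.2 CPM, replicate 3), Pmepa1 in Sham (164 CPM, replicate 4), Ski in Sham (235.0 CPM, replicate 4), Myh11 in Sham (14546 CPM, replicate 3), Lyz2 in Sham (377 CPM, replicate 1) and Spink3 in NeMO (0.138 CPM, replicate 4). The lowest stood apart for Acta1 in NeMO (580.0 CPM, replicate 2).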

How the results depend on the processing

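The number of genes past the threshold in edgeR was 12, and 172 with no filter on low counts, 7 with no batch term, 0 in batch 1 alone (1756 at an unadjusted p under 0.05) and 7 in batch 2 alone, where the lone Sham library is assumed to vary like the NeMO libraries. DESeq2's Wald test gave 953. With each library left out it ran from 0 (without NeMO replicate 4 or Sham replicate 4, with 2549 and 1656 at an unadjusted p under 0.05) to 652 (without NeMO replicate 1); the fit without Sham replicate 4 leaves batch 2 with no Sham library and so compares within batch 1. It was 15 with DESeq2 size factors and 13 once transcript length and GC were corrected for. Of the members, 1 passed, against 2 with no filter, 3 with DESeq2, 0 in batch 1 alone and 0 to 2 with a library left out. In batch 1 alone 6 members had an unadjusted edgeR p under 0.05, against 1756 of all genes. Member counts can include Inhba and Fst, on which the family was chosen, and are no test of it. The log2 fold change of Inhba stayed between 3.15 and 3.74 in all 16 alternatives. A direction turned for Acvr1 in batch 2 alone (−0.021) and for Acvr2a with the length and GC correction (−0.00091); the cause was not tested. Replicate numbers are shared between the groups without a stated pairing, and same-numbered libraries did not all deviate together (correlations −0.0096, 0.082, 0.044 and 0.324). With the replicate block 2 genes and 0 members passed in edgeR, and 6 members and 2227 of all genes had an unadjusted p under 0.05. Acvr2a stood at −0.040 in that fit, and the cause was not tested either. No gene passed for a group difference that depends on batch in edgeR, with DESeq2 size factors or with no filter (746 and 896 at an unadjusted p under 0.05). At 5 to 11 reads per Sham library, counting error limits the Inhba fold change.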

Other observations

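Mstn, the ligand myostatin that also uses Acvr2b and is bound by follistatin, was too scarce to pass the filter, with 16 reads in the 4 NeMO libraries and 94 reads in the 4 Sham libraries (0.115 ± 0.122 CPM in NeMO and 0.763 ± 0.465 CPM in Sham). Gdf3, a ligand of the Nodal type, measured 0.688, 0.166, 2.33 and 1.61 CPM in NeMO replicates 1 to 4, against 0.177, 0.0346, 0.419 and 0.304 CPM in Sham replicates 1 to 4 (log2 fold change 2.39, SE 0.84, edgeR adjusted p = 0.196). Both genes were singled out after their values were seen.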
